A study of Mus musculus with 12 samples.

Results

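Crip1, Calm5, Six4, Plekhb2, Nlrp6, Dgkk, Postn, Glb1l3 and Rdh1 are 9 of the 55401 genes counted in pooled 8-cell mouse embryos. They were selected from a larger set of genes because their RNA was higher when Nr5a2 was depleted, so the rise itself is how the genes were chosen and is given here as a description, without a test. The selection named no numerical threshold. The RNA-seq series holds 12 libraries of 10 embryos each, of which 2 are control, 3 Nr5a2 KD, 3 Klf5 KD and 4 Nr5a2 Klf5 dKD (written dKD). Zygotes from B6129F1 mothers and B6CBAF1 sires were injected with control siRNA at 15 µM, Nr5a2 siRNA at 5 µM, Klf5 siRNA at 10 µM, or both knockdown siRNAs at concentrations that the sources do not give, and all were co-injected with H2B-EGFP. An siRNA lowers a transcript without deleting the gene, and a pool does not show how single embryos differ. Nothing in the labels says that the pools came from separate days or parents, so p-values measure the spread between these pools. Fewer cells that express a gene and less RNA per cell cannot be told apart in such pools.

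NR5A2 is an orphan nuclear receptor that binds DNA as a monomer at sites with a nuclear receptor half-site, and it activates many genes after the embryonic genome is switched on. KLF5 is a zinc finger transcription factor of the early embryo that binds GC-rich and CACCC-like sites. The 9 genes have no common pathway in textbooks. They encode calcium- and zinc-binding proteins, a homeobox factor, membrane lipid proteins, an innate immune sensor, a matrix protein and metabolic enzymes, and most are known from later tissues rather than from cleavage embryos.

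The libraries held 6676683 to 12560926 counts on genes. Nr5a2 RNA was 0.149-fold of control in Nr5a2 KD and 0.141-fold in dKD (edgeR quasi-likelihood test, Benjamini-Hochberg adjusted p = 0.000321 and 0.000198). Klf5 RNA was 0.244-fold in Klf5 KD (adjusted p = 0.0996), 0.126-fold in dKD (adjusted p = 0.000602) and also 0.311-fold in Nr5a2 KD (adjusted p = 0.0013), so the Nr5a2 KD libraries carried less Klf5 RNA as well. Mitochondrial genes took 12.9 and 13.2% of counts in control and 4.41 to 12.8% in the other libraries. The 10 markers of the 8-cell embryo summed to 18166 and 21510 CPM (read counts scaled to a common library total with TMM factors) in control, 21562 to 24743 CPM with Klf5 siRNA and 21513 to 32330 CPM in the Nr5a2-depleted libraries, and all 10 were detected. Dppa3 made up most of this sum (15809 CPM on average in control, 25354 in Nr5a2 KD and 20891 in dKD), and other markers of the list averaged less with Nr5a2 siRNA: Tdgf1 had 43.1 CPM in control and 2.06 in Nr5a2 KD, Dppa5a 3827 and 2169, Tfap2c 62.1 and 30.7, and Sox21 21.4 and 4.62. Krt8 and Krt18, at 2.85 and 1.7 CPM in control, averaged more in Nr5a2 KD, 13 and 11 CPM. Inhba and Ptx3, which mark cumulus cells, Foxj1 of oviduct epithelium, Col1a2 and Dcn of fibroblasts and Hbb-bs and Ptprc of blood were at 0 in all 12 libraries. The marker sums of cumulus cells (9.21 to 21 CPM), oviduct (0.472 to 7.3 CPM) and sperm (0.284 to 2.82 CPM) overlapped between control and Nr5a2-depleted libraries. The 5 blood markers summed to 6.17 and 8.56 CPM in control but 7.99 to 21.7 CPM with Nr5a2 siRNA alone, 7.91 to 12.2 CPM with Klf5 siRNA and 14.1 to 30.1 CPM with both, most of it from the globin gene Hba-a1, and its part in the results was not tested.

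All 9 genes had every Nr5a2-depleted library (3 Nr5a2 KD and 4 dKD) above both control libraries, which 12.2% of the 13262 genes tested in Nr5a2 KD against control did. They also lay above all 3 Klf5 KD libraries, as 5.21% of those genes did. With total counts or ERCC spike-in counts as the scale, the same 9 genes stayed separated. Of the tested genes, 17.2% (total counts) and 37.4% (ERCC counts) then lay above both controls. Above the controls and all Klf5 KD libraries lay 8.03% (total counts) and 7.4% (ERCC counts). The rule used for other genes (adjusted p below 0.05, with a change of 2-fold or more) called 3.45% of the genes tested higher in Nr5a2 KD than in control, 3.38% in dKD against control and 5.38% in dKD against Klf5 KD. It took in 9, 9 and 8 of the 9 genes (not Glb1l3 in the last), which follows from their choice and is no test of them. Some of the calls in dKD against control rested on both control libraries being kept. ERCC scaling moved the log2 fold change of the median gene from 0.04 to 0.82 in Nr5a2 KD and from 0.05 to 0.84 in dKD, and the higher genes from 43.8 to 89.4% and from 46.7 to 94.1% of calls, while Calm5, the gene of the 9 with the smallest change, was then at 2.75 and 2.42, Crip1 at 3.76 and 3.26, Plekhb2 at 4.95 and 4.85 and Six4 at 5.82 and 5.63. Total counts gave 52.7% higher calls in Nr5a2 KD and 60.9% in dKD, and in dKD against Klf5 KD total and ERCC counts gave 68.6 and 62.7%, against 49.9%. Genes with no control counts passed the filter on low counts only through the libraries in which they were high. The description "switched on" covers 5 of the 9 in the strict sense: Nlrp6, Dgkk, Postn, Glb1l3 and Rdh1 had 0 counts in both control libraries, Six4 had 3 counts in each, and Plekhb2, Crip1 and Calm5 were already transcribed.

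**Figure D1:**
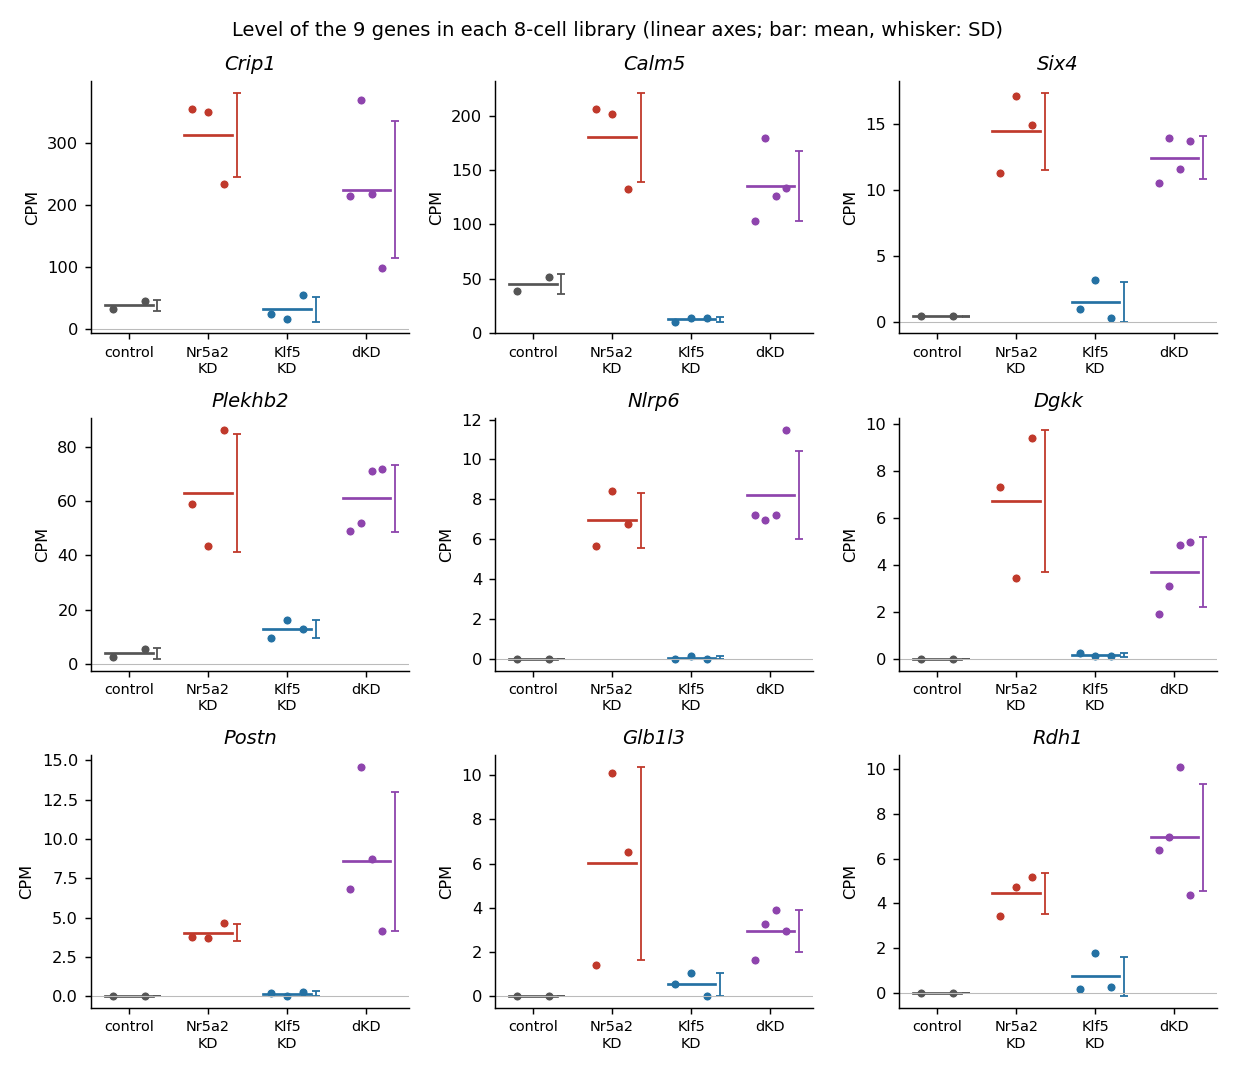
Level of each gene (CPM with TMM factors, linear axes that differ between panels) in the 12 libraries, grouped on the x axis as control, Nr5a2 KD, Klf5 KD and dKD. Points are libraries, bars are group means and whiskers are SD. In all 9 panels the 7 Nr5a2-depleted libraries lie above the 5 others.

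Where the levels per length are compared, Calm5 and Crip1 stood apart from the rest. In Nr5a2 KD the mean level was 306 CPM per kb of exon for Calm5 and 137 for Crip1, above 98.9% and 97.7% of the 24655 genes detected there. Plekhb2 followed at 7.88 CPM per kb, above 82.9% of detected genes. The other 6 genes lay between 2.29 CPM per kb (Glb1l3) and 0.465 (Postn), near the median of detected genes of 0.675. Calm5, Crip1, Plekhb2 and the next gene did not overlap in their libraries, whereas every later pair of neighbours in the order overlapped. In dKD the first 3 genes kept their places at 231, 98.5 and 7.63 CPM per kb, and among the other 6, Rdh1 was highest (1.77) and Dgkk lowest (0.518). In control only Calm5 (76.3 CPM per kb) and Crip1 (17.1) were above the median of detected genes of 0.932.

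**Figure D2:**
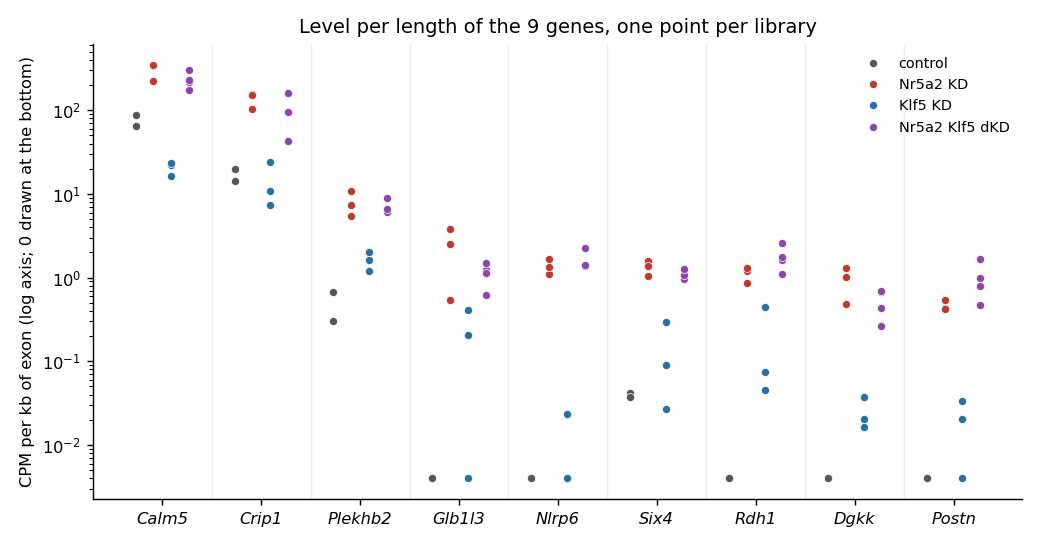
Level per kb of exon (CPM per kb, log axis) of the 9 genes, ordered by their Nr5a2 KD mean, with 1 point per library coloured by group; libraries at 0 are drawn on the lowest line. Calm5 and Crip1 lie highest in all groups, and 5 genes have both control libraries at 0.

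The first group binds metal ions. Crip1 (chr12:113146316-113153879, plus strand of GRCm38) encodes a small zinc-binding protein with a LIM domain. Its level was 32.6 and 45.2 CPM in control, 354, 350 and 234 in Nr5a2 KD, 24.8, 17 and 55.6 in Klf5 KD, and 215, 368, 217 and 98.5 in dKD. The Klf5 KD libraries spread across the control values, and the lowest dKD library was still above both controls. The fold against control was 8.15 in Nr5a2 KD (log2 3.03, SE 0.288) and 5.90 in dKD (log2 2.56, SE 0.446).

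Calm5 (chr13:3854173-3854761, plus strand) encodes a calmodulin-like protein with EF hands, the calcium-binding loops of calmodulin. It measured 38.3 and 51.5 CPM in control, 207, 202 and 133 in Nr5a2 KD, 9.8, 13.1 and 13.9 in Klf5 KD, and 103, 180, 126 and 134 in dKD. Calm5 was the only one of the 9 genes with all Klf5 KD libraries below both controls. Nlrp6, Dgkk, Postn, Glb1l3 and Rdh1, at 0 counts in both controls, could not lie below them. Of the tested genes 15% showed this, or 16.5% with total counts and 3% with ERCC counts as the scale. The fold of Calm5 against control was 4.07 in Nr5a2 KD (log2 2.03, SE 0.276) and 3.10 in dKD (log2 1.63, SE 0.272). Of the stretches of 50 bases in its transcript 7.26% also occur in Calm4, so a small part of its reads could not be placed with certainty.

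The relatives of Crip1 and Calm5 behaved unevenly. Of 12 calmodulin, calmodulin-like and S100 genes, 8 were tested in Nr5a2 KD against control. Their median log2 fold change was 1.17, against 0.04 over all genes tested, and 2 rose and none fell. S100a11, an S100 calcium-binding protein, rose 3.44-fold (36.7 ± 9.80 CPM in control, n = 2, and 124 ± 32.3 in Nr5a2 KD, n = 3, adjusted p = 0.00341). S100a10, the annexin A2 partner, rose 3.15-fold (adjusted p = 0.00318). Calm2 and Calm3, which encode calmodulin itself, had log2 fold changes of 0.36 and 0.45 and were not called (adjusted p = 0.422 and 0.259). In dKD against control S100a11 alone rose among 8 tested (2.08-fold, adjusted p = 0.0218). Without control replicate 2 neither S100 gene was called in Nr5a2 KD, and without either control library S100a11 was not called in dKD. Of 11 LIM-domain genes, 7 were tested in Nr5a2 KD, with a median log2 fold change of 0.38, and 2 fell, where 4.42% of all tested genes fell. Crip2 fell to 0.279-fold in Nr5a2 KD (63.2 ± 2.41 CPM in control and 17.3 ± 4.26, adjusted p = 0.00156 by edgeR) and to 0.256-fold in dKD (adjusted p = 0.00131 by edgeR), where 3.85% of tested genes fell. Its annotated span ends 0.81 kb before that of Crip1 on the same strand. The RefSeq start of Crip1 used further below lies inside the Crip1 span, after chr12:113152011. Lmo1, a LIM-only cofactor of transcription, fell to 0.204-fold in Nr5a2 KD (adjusted p = 0.0495) and 0.170-fold in dKD (adjusted p = 0.0124), and was called in neither without control replicate 1 or control replicate 2, nor in Nr5a2 KD without Nr5a2 KD replicate 1. Csrp1, a LIM protein of the cytoskeleton, rose 2.12-fold in dKD (adjusted p = 0.0254), a call that was lost without either control library or without dKD replicate 4.

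Six4 (chr12:73099609-73113456, minus strand) encodes a sine oculis homeobox factor that works with EYA coactivators in muscle, sensory and kidney development. Its counts were 3 and 3 in control, 96, 124 and 119 in Nr5a2 KD, 11, 27 and 2 in Klf5 KD, and 83, 98, 98 and 116 in dKD. On the CPM scale this was 0.429 ± 0.0368 in control, 14.4 ± 2.91 in Nr5a2 KD, 1.49 ± 1.51 in Klf5 KD and 12.4 ± 1.66 in dKD. The Klf5 KD libraries fell on both sides of the controls. The fold against control was 33.2 in Nr5a2 KD (log2 5.05, SE 0.523) and 28.7 in dKD (log2 4.85, SE 0.472), and it rests on 6 control counts. Of 10 sine oculis, EYA and DACH genes analysed, Eya3 alone had enough counts for the test. Eya3, an EYA coactivator with phosphatase activity, had a log2 fold change of 0.05 (adjusted p = 0.951) in Nr5a2 KD and 0.08 (adjusted p = 0.932) in dKD.

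The next group acts at membranes. Plekhb2 (chr1:34849976-34879580, plus strand) encodes evectin-2, a protein with a pleckstrin homology domain that binds phosphatidylserine on recycling endosomes. Its level was 2.42 and 5.37 CPM in control, 59.1, 43.4 and 86.3 in Nr5a2 KD, 9.53, 16.1 and 12.9 in Klf5 KD, and 48.9, 52, 71.2 and 71.7 in dKD. All 3 Klf5 KD libraries lay above both controls and below all Nr5a2-depleted libraries, as was so for Dgkk and Rdh1 at far fewer counts. The fold against control was 16.3 in Nr5a2 KD (log2 4.02, SE 0.429) and 15.9 in dKD (log2 3.99, SE 0.385). Among the 7 Nr5a2-depleted libraries, the 3 with a mitochondrial share of 6.17 to 6.75% held 71.2 to 86.3 CPM. The 4 with a share of 10.4 to 12.8% held 43.4 to 59.1 CPM. Of the 9 genes only Plekhb2 had no overlap between these sets of libraries. How many of all genes separate in this way is not given here, so no link with the mitochondrial share is read from it. The Klf5 KD libraries showed no such order, with 9.53 CPM at a share of 4.41%, 16.1 at 8.28% and 12.9 at 11.8%. A fit with that share as a covariate gave 3.41 on the log2 scale in Nr5a2 KD, and leaving out control replicate 2 gave 4.72 in Nr5a2 KD and 4.69 in dKD. Of 9 other pleckstrin homology genes 8 were tested, with a median log2 fold change of -0.09 in Nr5a2 KD. Plekhm2, which links lysosomes to kinesin, was the only one called and fell, to 0.279-fold in Nr5a2 KD (adjusted p = 0.0459) and 0.252-fold in dKD (adjusted p = 0.0106), in neither case without control replicate 1 or control replicate 2, nor in Nr5a2 KD without Nr5a2 KD replicate 1 or 3.

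Dgkk (chrX:6779306-6948363, plus strand) encodes diacylglycerol kinase kappa, which turns the second messenger diacylglycerol into phosphatidic acid. It had 0 counts in both controls, 62, 25 and 75 in Nr5a2 KD, 3, 1 and 1 in Klf5 KD, and 15, 22, 41 and 42 in dKD. All 3 Klf5 KD libraries had a read and neither control did, at counts too low for a comparison. A count of 0 in both controls allows up to 3 counts over the group, or 0.214 CPM. Against that limit the pooled level of Dgkk was at least 32.0-fold higher in Nr5a2 KD and at least 17.6-fold higher in dKD. Such limits, here and for the other genes at 0 in control, cover the counting error of the controls only. They leave out the spread between libraries and the choice of the genes by their rise. Of 12 other diacylglycerol kinase and lipase genes 8 were tested in Nr5a2 KD and 7 in dKD, with median log2 fold changes of -0.10 and 0.08, and none was called in either.

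Nlrp6 (chr7:140920902-140929192, plus strand) encodes a NOD-like receptor that can assemble an inflammasome and is best known from the intestinal epithelium. It had 0 counts in both controls, 48, 61 and 54 in Nr5a2 KD, 0, 1 and 0 in Klf5 KD, and 57, 49, 61 and 97 in dKD. Of the 9 genes it had the fewest reads in Klf5 KD, 1 in all. It was at least 32.2-fold higher than control in Nr5a2 KD and at least 38.8-fold higher in dKD. Of 14 other NLR and inflammasome genes 6 were tested in Nr5a2 KD, with a median log2 fold change of -0.24 (-0.68 for 6 tested in dKD), and 2 rose. Nlrc4, which senses bacterial flagellin through NAIP proteins, rose 5.94-fold in Nr5a2 KD (1.5 ± 0.230 to 8.80 ± 2.79 CPM, adjusted p = 0.01) and 6.23-fold in dKD (adjusted p = 0.0336). Aim2, a sensor of cytosolic DNA, rose 3.03-fold in Nr5a2 KD (adjusted p = 0.0371) and 4.73-fold in dKD (adjusted p = 0.00559). These calls were lost without control replicate 1 and without control replicate 2. That of Nlrc4 in dKD was also lost without dKD replicate 2, 3 or 4, and that of Aim2 in Nr5a2 KD without Nr5a2 KD replicate 1 or 2. The log2 fold change of Nlrc4 in dKD ran from 1.95 to 3.45 over all settings. Of the 11 NLRP genes of the oocyte, 7 were tested in Nr5a2 KD with a median of -0.52 and none called, and in dKD 8 were tested with a median of -0.41 and 1 fell, Nlrp5, a maternal-effect gene of the subcortical complex (0.444-fold, adjusted p = 0.0324, not called without control replicate 1 or 2 or dKD replicate 2 or 3).

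Postn (chr3:54361109-54391037, plus strand) encodes periostin, a secreted matricellular protein that binds integrins and is typical of mesenchyme. It had 0 counts in both controls, 32, 27 and 37 in Nr5a2 KD, 2, 0 and 2 in Klf5 KD, and 54, 103, 74 and 35 in dKD. In 3 of 4 cases the dKD libraries lay above every Nr5a2 KD library. It was at least 19.0-fold higher than control in Nr5a2 KD and at least 39.1-fold higher in dKD. The sum of the 7 fibroblast and mesenchyme markers ranged over 0 to 0.606 CPM (control), 0.472 to 2.48 CPM (Nr5a2 KD), 0.147 to 0.765 CPM (Klf5 KD) and 1.30 to 1.84 CPM (dKD), with 2 of 7 detected in control and 5 of 7 in the Nr5a2-depleted libraries, and most of it was Thy1 (0.726 CPM on average in Nr5a2 KD and 1.05 in dKD). Col1a2 and Dcn were at 0 throughout, and the part of mesenchymal cells in the Postn reads was not tested further. Of 15 matricellular and integrin genes 10 were tested in each comparison, with a median log2 fold change of 0.76 in Nr5a2 KD and 0.66 in dKD, against 0.04 and 0.05 over all genes. Spp1, the secreted integrin ligand osteopontin, rose in Nr5a2 KD (0.143 ± 0.0123 to 5.44 ± 4.79 CPM, adjusted p = 0.0297) and in dKD (adjusted p = 0.00389). Its control value is 2 counts, and the ratio of summed counts was 39.4 in Nr5a2 KD (95% exact binomial interval for counting error, 10.7 to 329) and 30.8 in dKD (8.38 to 257). Ccn1, a matricellular protein, rose 5.11-fold in dKD (adjusted p = 0.0206) and Itgb3, an integrin subunit, 7.03-fold (adjusted p = 0.0389). Spp1 was not called in Nr5a2 KD without control replicate 1 or control replicate 2 and varied widely there, but it was called in dKD with each library left out, whereas Ccn1 and Itgb3 were lost without either control library, Ccn1 also without dKD replicate 3, and Itgb3 also without dKD replicate 2, 3 or 4.

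The last group holds enzymes. Glb1l3 (chr9:26817953-26860890, minus strand) encodes a relative of the lysosomal beta-galactosidase whose own activity is little studied. It had 0 counts in both controls, 12, 73 and 52 in Nr5a2 KD, 6, 9 and 0 in Klf5 KD, and 13, 23, 33 and 25 in dKD. Its spread was the widest of the 9 in the Nr5a2-depleted libraries, 7.11-fold from the lowest to the highest CPM, and the lowest of them (1.42 CPM) stood close to the highest Klf5 KD library (1.06 CPM). With the libraries of each group pooled, Glb1l3 was at least 27.1-fold higher than control in Nr5a2 KD and at least 13.8-fold in dKD. In Klf5 KD 2 of 3 libraries, at 0.54 and 1.06 CPM, were above the control limit of 0.214 CPM. Of 9 beta-galactosidase and lysosomal glycosidase genes 8 were tested, with a median log2 fold change of -0.08 in Nr5a2 KD and 0.09 in dKD. Glb1, the lysosomal beta-galactosidase, fell to 0.388-fold in Nr5a2 KD (31.3 ± 7.47 to 11.9 ± 3.07 CPM, adjusted p = 0.0188), a call lost without either control library or without Nr5a2 KD replicate 1.

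Rdh1 (chr10:127759721-127768297, plus strand) encodes a retinol dehydrogenase, which oxidizes retinol to retinaldehyde on the way to retinoic acid. It had 0 counts in both controls, 29, 34.5 and 41.33 in Nr5a2 KD, 2, 15 and 2 in Klf5 KD, and 50.5, 49, 85.83 and 37 in dKD. Fractions come from reads split between several genes. It was at least 20.7-fold higher than control in Nr5a2 KD and at least 32.6-fold in dKD. All 3 Klf5 KD libraries had reads, but 15 of their 19 counts were in replicate 2, and the other 2 libraries, at 0.18 and 0.294 CPM, lay near the control limit of 0.214 CPM. The exons of Rdh1 share 464 bases (11.8% of its exonic length) with Rdh16f1 on the same strand, and 15.6% of its 50-base stretches occur in other genes, so its level is less certain than that of the others. Rdh16f1 had 2 counts in control, 55.33 in Nr5a2 KD and 95.33 in dKD over the group. Of 26 other genes of retinol and retinoic acid metabolism 10 were tested in Nr5a2 KD, with a median log2 fold change of -0.04, and 2 rose. Rdh12, another retinol dehydrogenase, rose 16.2-fold in Nr5a2 KD (1.03 ± 0.692 to 16.2 ± 8.18 CPM, adjusted p = 0.00223) and 15.8-fold in dKD (adjusted p = 0.00677). Rdh9, which lies 8.09 kb after Rdh1 in the same cluster, rose in Nr5a2 KD (0.219 ± 0.119 to 3.06 ± 1.16 CPM, adjusted p = 0.0238) and in dKD (adjusted p = 0.0347). With 3 control counts, the ratio of summed counts was 14.2 in Nr5a2 KD (95% exact binomial interval for counting error, 4.68 to 70.6) and 11.6 in dKD (3.83 to 57.5). Without control replicate 1 or control replicate 2, Rdh9 was not called in either comparison and Rdh12 not in dKD, and Rdh9 was not called in dKD without dKD replicate 2, 3 or 4 either.

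Over the 10 family lists, which leave the 9 genes out, 73 genes were tested in Nr5a2 KD against control, and 7 rose and 4 fell, where 3.45% of all tested genes rose and 4.42% fell. In dKD against control 9 of 74 rose and 4 fell, where 3.38% of all tested genes rose and 3.85% fell. Both comparisons use the same 2 control libraries. The lists were chosen with earlier results of these data known, so these counts are a description and no test of the lists. Crip2 and Rdh9 are also counted among the neighbouring genes below. With all libraries kept, the Nr5a2 KD calls of S100a10, S100a11 and Rdh12 held under all 9 alternative fits. ERCC scaling ended those of Crip2, Lmo1, Plekhm2 and Glb1, the fit that adjusts for mitochondrial share ended those of Lmo1, Plekhm2, Nlrc4, Glb1, Rdh9 and Spp1, a fit over all 12 libraries those of Aim2 and Glb1, total counts those of Lmo1 and Plekhm2, and the replicate block those of Lmo1, Plekhm2, Rdh9 and Spp1. In dKD the calls of Crip2, S100a11, Aim2, Spp1, Ccn1, Rdh9 and Rdh12 held under all 9, while the adjustment for mitochondrial share ended those of Csrp1, Itgb3, Lmo1 and Nlrc4, the replicate block those of Csrp1 and Itgb3, the fit over all 12 libraries those of Itgb3 and Nlrp5, ERCC scaling those of Nlrp5 and Plekhm2, and total counts that of Nlrp5.

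The question whether the nearest genes moved too was asked for the tested gene next to each of the 9 on either side. The 17 genes analysed lay 0.81 to 1123 kb away, and 3 of them were called in Nr5a2 KD against control, where 3.45% of all tested genes rose and 4.42% fell: Rdh9 and Gm45717 rose and Crip2 fell. The same 3 were called in dKD against control. Gm45717, an annotated gene 20 kb after Nlrp6 on the other strand, rose from 37.8 ± 7.90 CPM in control to 173 ± 7.95 in Nr5a2 KD (log2 fold change 2.22, adjusted p = 0.000533) and 160 ± 34.0 in dKD (log2 2.12, adjusted p = 0.00221, not called without control replicate 1). Psmd13, a proteasome subunit on the other side of Nlrp6, had a log2 fold change of 0.59 and was not called (adjusted p = 0.303). Next to Crip1, Tedc1, a centriole protein gene 2.54 kb away, had 0.26 (adjusted p = 0.657). Calm4, the calmodulin-like gene beside Calm5, had a log2 fold change of 2.09 with an SE of 1.02 and was not called (adjusted p = 0.237). The nearest genes of Plekhb2, Dgkk, Postn and Glb1l3 were not called in either comparison, with adjusted p of at least 0.0947.

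**Figure D3:**
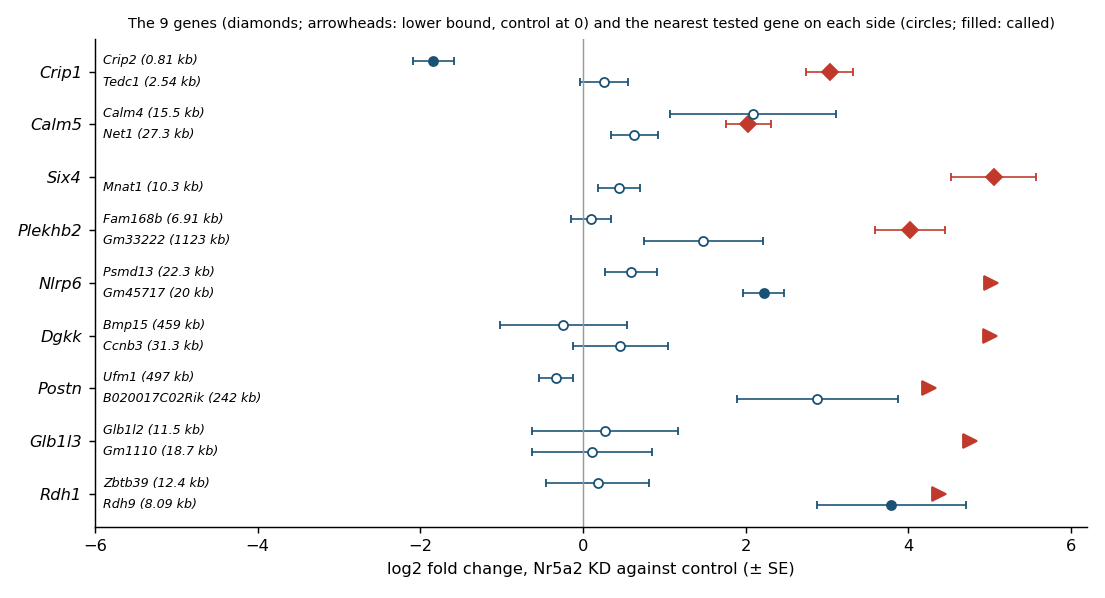
Log2 fold change in Nr5a2 KD against control (x axis) of the 9 genes and of the nearest tested gene on each side, with its distance in kb. Diamonds with SE are genes with control counts, and circles are neighbours with SE, filled where called. Arrowheads are lower bounds for genes at 0 in control, which cover the counting error of the controls only. Only Gm45717, Rdh9 and, downwards, Crip2 are filled, and Six4 is drawn with 1 neighbour.

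The bases before the annotated starts were searched next, because the 9 genes were higher in the same libraries. RefSeq (GRCm38.p6) gave 12 starts for the 9 genes, and the 250 bases before each were read on both strands for 9 strings. AAGGTCA, the T form of the extended half-site that NR5A receptors bind, was in none of the 12, and in 4.08% of 32851 starts of all genes. AAGGCCA, the C form, was before 2 starts, those of Nlrp6 and Postn printed here, and in 5.24% of all starts. The longer forms TCAAGGTCA and TCAAGGCCA, which contain them, were in none of the 12 and in 0.387 and 0.511% of all starts. Both C forms were added after the data were seen. CCACCC, a KLF-type string, was found before 7 starts of 5 genes (Plekhb2, Nlrp6, Six4, Crip1 and Calm5), and in 28.1% of all starts. The windows of both Plekhb2 starts overlap and hold the same CCACCC and AGATAA, and those of both Six4 starts share 1 CCACCC, so the counts of starts take these matches more than once. AGATAA, the GATA string, stood before 4 starts of 3 genes (Plekhb2, Glb1l3 and Crip1), against 9.99%. GGGCGGGG, the GC box, stood before Crip1 alone (16.1% of all starts), TATAAA before Postn alone (12.4%), and CACGTG before none (6.02%). A match is a string of letters, not a bound site. The starts of 2 genes that were transcribed in control (Crip1 and Calm5) and 2 that were at 0 there (Nlrp6 and Postn) are printed 5′ to 3′ along the gene to show how unlike they are, with the searched strings in capitals. In Crip1 the string GGGTGG overlaps a GC box.
Crip1 (chr12:113151762-113152011, plus strand): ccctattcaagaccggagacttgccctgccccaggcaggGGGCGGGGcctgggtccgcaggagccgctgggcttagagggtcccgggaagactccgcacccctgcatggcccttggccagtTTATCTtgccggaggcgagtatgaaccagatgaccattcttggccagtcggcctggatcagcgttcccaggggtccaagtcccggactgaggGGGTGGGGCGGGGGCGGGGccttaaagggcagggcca
Calm5 (chr13:3853923-3854172, plus strand): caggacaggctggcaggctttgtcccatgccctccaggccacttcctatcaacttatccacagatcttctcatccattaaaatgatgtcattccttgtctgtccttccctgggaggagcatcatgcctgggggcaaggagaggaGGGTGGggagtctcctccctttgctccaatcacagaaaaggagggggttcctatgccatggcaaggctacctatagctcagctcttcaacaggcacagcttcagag
Nlrp6 (chr7:140920652-140920901, plus strand): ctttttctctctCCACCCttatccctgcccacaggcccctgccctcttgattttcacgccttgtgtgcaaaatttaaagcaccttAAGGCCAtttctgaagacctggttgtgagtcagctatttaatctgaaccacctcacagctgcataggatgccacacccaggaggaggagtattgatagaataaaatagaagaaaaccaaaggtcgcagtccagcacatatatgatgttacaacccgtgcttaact
Postn (chr3:54360857-54361106, plus strand): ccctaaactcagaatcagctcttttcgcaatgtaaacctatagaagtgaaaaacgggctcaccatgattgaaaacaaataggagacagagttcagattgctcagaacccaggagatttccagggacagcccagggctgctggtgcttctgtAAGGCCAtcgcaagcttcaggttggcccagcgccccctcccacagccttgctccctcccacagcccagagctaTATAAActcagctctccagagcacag
The GC content was 67.2% for Crip1, 53.6% for Calm5, 45.6% for Nlrp6 and 52% for this start of Postn, against a median of 52.4% over all starts. CG dinucleotides numbered 13, 0, 3 and 4, against a median of 6. Of the 12 starts the one with the highest GC content (72%) and most CG dinucleotides (22) was that of Dgkk, which is not printed.

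The Klf5 KD libraries, which the stated reason for the choice does not involve, show the same genes without Nr5a2 siRNA. The control libraries were used in the choice, and genes low in them by chance would look higher in Klf5 KD. Only Crip1, Calm5 and Plekhb2 had enough counts for the test. None of the 3 was called, and edgeR called 0% of 12838 genes at the same threshold (1088 genes, 8.47%, had an unadjusted p under 0.05, and DESeq2 called 50), with Klf5 itself at an adjusted p of 0.0996. Calm5 had a log2 fold change of -1.87 (SE 0.305, unadjusted p = 3.86e-05, adjusted p = 0.0996 by edgeR) and was lower in 3 of 3 libraries. DESeq2 called it, with an adjusted p of 0.000143, and over the alternatives the adjusted p ran from 0.000143 to 0.465. Plekhb2 had 1.70 (SE 0.451, unadjusted p = 0.00237, adjusted p = 0.366 by edgeR) and was higher in 3 of 3 libraries, and its adjusted p ran from 0.0207 to 0.579 over the alternatives. Crip1 had -0.27 (SE 0.423, adjusted p = 0.896 by edgeR), and its sign turned with ERCC scaling, where the median of all genes shifted to 0.66. Of the 6 untested genes, Dgkk and Rdh1, with Plekhb2, had every Klf5 KD library above both controls, as 11.8% of genes did, and Nlrp6, Postn, Glb1l3 and Six4 did not. That share of genes was 9.88% with total counts and 33.9% with ERCC counts as the scale.

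Adding Klf5 siRNA to Nr5a2 siRNA was compared as dKD against Nr5a2 KD, where all 9 genes were tested. The genes were chosen for being high in either group. None was called, and edgeR called 0% of 13017 genes, with 447 (3.43%) at an unadjusted p under 0.05 and 4 called by DESeq2, none of them among the 9. In no case did the dKD libraries lie wholly above or below the Nr5a2 KD libraries, as they did for 4.79% of genes. Taken by replicate number, the 3 same-numbered pairs went one way for 5 of 9 genes, as for 27.6% of all genes tested: Postn and Rdh1 were higher in dKD in each pair, and Calm5, Six4 and Dgkk lower. The log2 fold changes ran from -1.02 (Glb1l3, SE 0.558) to 1.08 (Postn, SE 0.419), with a median of -0.22 against 0.01 over all genes, and 6 of 9 were negative. Without the replicate block, Postn was the only one with an unadjusted p under 0.05 (0.0246, adjusted p = 0.999 by edgeR), from 4.05 ± 0.521 CPM in Nr5a2 KD (n = 3) to 8.58 ± 4.44 in dKD (n = 4). Rdh1 had 0.66 (SE 0.374) and Nlrp6 0.25 (SE 0.317), while Dgkk had -0.85 (SE 0.448), Crip1 -0.48 (SE 0.341), Calm5 -0.41 (SE 0.233), Six4 -0.22 (SE 0.255) and Plekhb2 -0.04 (SE 0.261), all with an adjusted p of 0.999. With the replicate number as a block, the log2 fold changes ran from -1.01 (Dgkk, SE 0.427, adjusted p = 0.735 by edgeR) to 1.24 (Postn, SE 0.357, adjusted p = 0.538), and none was called. Unadjusted p under 0.05 was then found for Postn (0.0042), Dgkk (0.034), Rdh1 (0.0342) and Calm5 (0.0419). Calm5 was lower by 1.87 with Klf5 siRNA alone and by 0.41 with Klf5 siRNA on top of Nr5a2 siRNA, and the difference between these values was not tested.

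**Figure D4:**
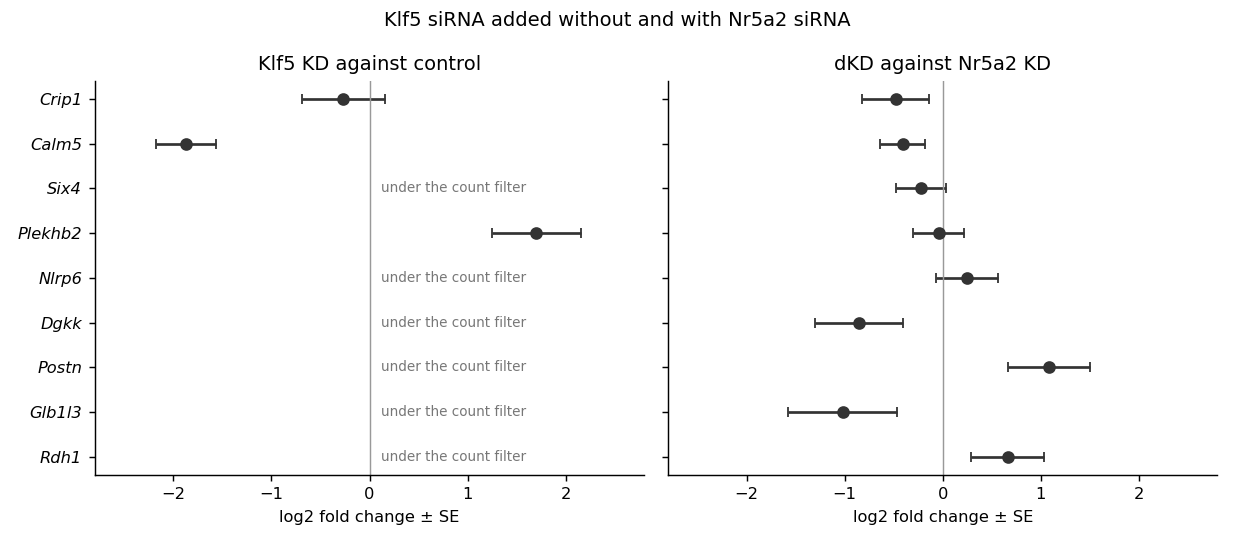
Log2 fold change with SE (x axis) of the 9 genes when Klf5 siRNA was given alone (left, against control) or with Nr5a2 siRNA (right, against Nr5a2 KD). Genes with too few counts are marked as under the count filter, and no point shown was called by edgeR. Calm5 is lowest on the left at -1.87, and Postn is highest on the right at 1.08.

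Genes with a like pattern were ranked by the root mean square (RMS) difference of centred log2 CPM over the 12 libraries, which share the same depth differences. This pattern holds the rise by which the 9 genes were chosen. The nearest genes are therefore others with a like rise, and the ranking is a description only. Some, such as Rasgrf1, had no control counts and passed the filter only through libraries in which they were high. Among 14821 other genes, the nearest to the mean pattern of the 9 were Rasgrf1, a guanine nucleotide exchange factor (RMS 0.32), Cd86, a costimulatory ligand of immune cells (0.43), Gdpd1, a glycerophosphodiesterase (0.48), Umodl1 (0.53) and Matn3, a cartilage matrix protein (0.54). Rasgrf1 averaged 0 CPM in control and in Klf5 KD, 2.27 ± 0.661 in Nr5a2 KD and 2.49 ± 0.400 in dKD. Gdpd1 averaged 2.65 ± 1.18 CPM in control, 23.6 ± 9.28 in Nr5a2 KD, 4.31 ± 1.5 in Klf5 KD and 31.1 ± 5.37 in dKD, and it was also the nearest to Plekhb2 (RMS 0.41). Six4 and Rdh1 were each other's nearest gene among all compared (0.57). Phf6, a chromatin-associated zinc finger protein, was the nearest to Dgkk (0.50), with 23.2 ± 0.625 CPM in control, 313 ± 188 in Nr5a2 KD, 30.1 ± 8.26 in Klf5 KD and 342 ± 192 in dKD. The nearest to Crip1 was Pld5 (0.44), to Calm5 Schip1 (0.45), to Nlrp6 the interleukin gene Il1f9 (0.72), to Postn the leukotriene receptor gene Cysltr1 (0.55) and to Glb1l3 the Wnt transport gene Wls (0.52).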

How the data were processed

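RNA-seq was analysed from 12 libraries of pooled 8-cell embryos. Per the file headers, the authors counted read pairs over exons with featureCounts 2.0.1 after Trim Galore 0.6.2 and STAR (GRCm38, Ensembl annotation), without strand and with a read that overlaps several genes split between them. The deposited values are therefore estimated counts, and 7.3 to 8.66% per library were not whole. They were rounded here. EdgeR 4.0.16 in R 4.3.3 (TMM factors, filterByExpr with a minimum count of 10 and total of 15, glmQLFit, glmQLFTest) compared 2 groups at a time, with Benjamini-Hochberg adjustment over all genes tested. Calls needed an adjusted p below 0.05 with a change of 2-fold or more. Levels are CPM with TMM factors over the 12 libraries. Errors given after ± are SD between libraries. The SE of a log2 fold change was back-calculated as its absolute value over the square root of the quasi-likelihood F statistic. Limits cover counting error only, since reads carry no molecular identifiers. The members and lists were chosen with earlier results of these data known.

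Besides the 9 genes, the text names up to 3 called genes of each family list with the largest change, the nearest tested gene on each side, genes that share exons, and the genes with the most similar pattern. Calm2, Calm3 and Eya3 were not called and were added after their values were seen, and cell markers are named beside their sums. Alternatives were DESeq2 1.42.0, its size factors, total or ERCC counts, no filter, all 12 libraries in 1 fit, the replicate number as a block, mitochondrial share as a covariate, unrounded values, and each library left out. Same-numbered dKD and Nr5a2 KD libraries deviated together (correlations of 0.13, 0.221 and 0.254 over 14830 genes), so by a fixed rule (each above 0.1) the numbers were taken to pair them, although dKD replicate 4 went with Nr5a2 KD replicate 3 as closely (0.264). For the other comparisons they did not. Figures were drawn with matplotlib 3.10.9. Other data types of the study were not analysed here, and some genes of the lists and neighbourhoods are not reported here.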

Additional observations from a re-analysis of the deposited data

Results flagged for a closer look

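The highest of the 4 dKD libraries for Nlrp6 (replicate 4, 11.5 CPM) lay far from the other 3, which held 6.95 to 7.21 CPM: the gap to the nearest was 0.943 of the whole range, above the critical value of Dixon's test for 4 values. Of the 9 genes this was the only such case among the dKD libraries, and chance gives about 1 in 20 groups. That library had the second lowest mitochondrial share of all 12 (6.17%), and the part of this share in the value was not tested.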

How the results depend on the processing

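The 9, 9 and 8 calls of the 9 genes against control and Klf5 KD follow from how the genes were chosen. Under the alternatives that keep all libraries the calls changed only in dKD against Klf5 KD, where Glb1l3 was added by some. Without control replicate 1 or 2, the calls in dKD against control dropped from 9 to 5 (lowest 5, highest 9), Crip1, Calm5, Dgkk and Glb1l3 being lost. In Klf5 KD against control the number of the 9 genes called was 0, but 1 with DESeq2, 1 with ERCC counts, 1 with all 12 libraries in 1 fit and 2 without the filter. Over all genes, Nr5a2 KD against control gave 1043 calls, 655 with mitochondrial share in the model and 304 to 1005 with a library left out. For dKD against control there were 993, 3016 with ERCC counts, 1587 without the filter and 132 to 1295. For dKD against Klf5 KD there were 1392, and 911 to 1366 with a library left out. For Klf5 KD against control there were 0, 50 with DESeq2, 25 with ERCC counts, 6 with all 12 libraries in 1 fit, 114 without the filter and 0 to 16 with a library left out. For dKD against Nr5a2 KD there were 0, 4 with DESeq2, 1 with the mitochondrial share, 20 without the filter and 0 to 3 with a library left out.

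With the replicate number as a block, 532 genes were called in dKD against Klf5 KD, and in Klf5 KD against control 253 genes and 2 of the 9 (Calm5 and Plekhb2), although the numbers do not pair those libraries. The block changed no call of the 9 in the other comparisons.

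The log2 fold change of Crip1 in Klf5 KD turned from -0.27 to 0.25 with ERCC counts, 0.36 with mitochondrial share in the model, 0.05 without Klf5 KD replicate 2 and 0.01 without control replicate 2, and with a library left out it lay between -0.87 and 0.05. That of Plekhb2 in dKD against Nr5a2 KD turned from -0.04 to 0.27 without Nr5a2 KD replicate 3, 0.05 without dKD replicate 1 and 0.04 without dKD replicate 2, and lay between -0.25 and 0.27 with a library left out. The cause was not tested. For the 5 genes at 0 in both control libraries, folds against control are limits set by depth, and those of Six4 and Plekhb2 rest on few control counts.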

Other observations

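Among the 9 genes themselves, the patterns over the 12 libraries fell closest for Six4 and Rdh1 (RMS difference 0.57 on the log2 scale) and for Six4 and Glb1l3 (0.63), and farthest for Calm5 and Rdh1 (1.35). Crip1 and Calm5, the 2 abundant genes, were 0.67 apart. Within the 7 Nr5a2-depleted libraries the level ranged 1.63-fold for Six4, the narrowest, and 2.00-fold for Calm5, 1.99-fold for Plekhb2 and 2.02-fold for Nlrp6, against 4.97-fold for Dgkk and 7.11-fold for Glb1l3. In the 3 of these libraries with the lower mitochondrial share, Crip1 averaged 183 CPM against 322 CPM in the other 4, and Dgkk 6.41 CPM against 3.94 CPM, with overlapping ranges for both.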
